A study of Danio rerio with 10 samples.

Results

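On arrays of zebrafish embryos, 140 of 15502 probe sets took a large step of the same sign wherever the Bdh2 morpholino had been injected. A probe set is a group of short probes that reads 1 stretch of a transcript. A probe set was taken as a member when mean dual minus mean Atg7 and Bdh2 minus mean control were both at least 1 in size with the same sign on the log2 scale, a 2-fold difference. The 4 arrays with the Bdh2 morpholino also had to lie on 1 side of the 6 without it. The rule was met by 155 probe sets (1.00% of those tested), and 15 of these were left out by gene name because they belong to the globin, heat shock, metalloproteinase, keratin and collagen families or are ddit4, ctsba, cyp17a1, acsl1a, cp or ahsa1a. Of the 140 members, 61 were higher and 79 lower in the arrays with the Bdh2 morpholino, and before the exclusions the rule took 0.419% of all probe sets as higher and 0.581% as lower. The platform annotation gave 1 gene symbol for 93 members (87 genes), several for 2 and none for 45. Since measured values chose the members, their steps are given as a description without a test.

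The study compared morphants, embryos in which an antisense morpholino blocks a chosen transcript, in whole wild-type zebrafish 72 h after fertilization. Each embryo had received 1 to 2 nL of a 130 micromol/L solution when it had 1 or 2 cells. Whether dual embryos got this concentration of both morpholinos, or of the pair together, is not given in the sources used here. Dual morphants received the Atg7 and the Bdh2 morpholino (3 arrays), Bdh2 morphants the Bdh2 morpholino (1 array), Atg7 morphants the Atg7 morpholino (3 arrays) and the last group is labelled control morphant (3 arrays). What the control morpholino was, and how many embryos went into a sample, are not given in the sources used here. A morpholino is diluted as the embryo grows, so that these embryos model a transient knockdown. The labels do not state whether replicates came from separate spawnings, and p-values therefore describe the spread among these samples alone, possibly a technical one. The values are log2 intensities, between 2.48 and 14.9, and array medians lay between 6.33 and 6.38.

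Bdh2 is a dehydrogenase known in mammals for its part in making a siderophore, a small molecule that carries iron. Atg7 activates the ubiquitin-like proteins needed to build autophagosomes. The members are not a known pathway, and encode proteins as different as an endoplasmic reticulum chaperone, a prolyl isomerase, a brain peptide receptor, a galectin and the muscle spring titin. On this kind of array several probe sets may read 1 gene, each at another stretch or at another transcript end, so that probe sets of the same gene can be set beside each other. In whole embryos, fewer cells of a type and less RNA per cell cannot be told apart.

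Some facts of the whole series bear on these steps. The probe set of bdh2, 1 of the targeted genes, read 7.38, 7.28 and 7.17 on dual arrays and 7.47 on the Bdh2 array, against 7.22, 7.18 and 7.22 on Atg7 arrays and 7.17, 7.07 and 7.27 on control arrays. The groups overlap, and since a morpholino can block a protein without lowering its RNA, these values do not check the labels; a probe set named for atg7 was not analysed here. Pearson's r over the probe sets, given as a description, was 0.992 to 0.993 between dual arrays and the Bdh2 array. Between the Bdh2 array and control arrays r was 0.983, and 0.988 once the 155 probe sets were left out. That rise follows from the rule, which chose them partly on this difference. Between Atg7 and control arrays r was 0.994 to 0.996. The actin 3 prime minus 5 prime difference, a sign of RNA quality, was 3.83 to 3.91 on dual arrays and 4.30 on the Bdh2 array, against 3.86 to 4.05 on Atg7 arrays and 3.41 to 3.53 on control arrays. Its part in the steps was not tested. Of 7 short lists of cell type markers, 2 had all 4 arrays with the Bdh2 morpholino on 1 side of the other 6. The share of all probe sets that separate in this way is not given here. For 5 of 6 erythrocyte markers the mean log2 level was 5.72 to 5.83 on dual arrays and 6.05 on the Bdh2 array, against 6.09 to 6.18 in Atg7 arrays and 7.18 to 7.31 in control arrays. In this list the Bdh2 array lay close to the Atg7 arrays, and dual, Bdh2 and Atg7 arrays all lay well under the control arrays. For 5 of 6 skeletal muscle markers (9 probe sets) it was 11.38 to 11.41 on dual arrays and 11.19 on the Bdh2 array, against 11.53 to 11.57 on Atg7 arrays and 11.52 to 11.55 on control arrays. The part of red cells and muscle in the steps was not tested. The lists of neuron, lens, liver, epidermis and myeloid markers did not separate the arrays in this way.

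How far the 2 steps of the rule go together can be read without shared arrays, since dual minus Atg7 and Bdh2 minus control have no array in common. Dual minus Atg7 was at least 1 in size in 245 probe sets, and in 155 of them (63.3%) Bdh2 minus control was also at least 1 with the same sign. Bdh2 minus control reached 1 in 366 probe sets, 2.36% of the array, and the 155 were 42.4% of these. No probe set reached 1 in both with opposite signs. All 13 probe sets with dual minus Atg7 of at least 3 in size reached 1 with the same sign in the Bdh2 array. Bdh2 minus control rests on 1 array and has no replicate check. Without the demand that the 4 arrays lie apart from the 6, the rule took the same 140 members.

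**Figure D1:**
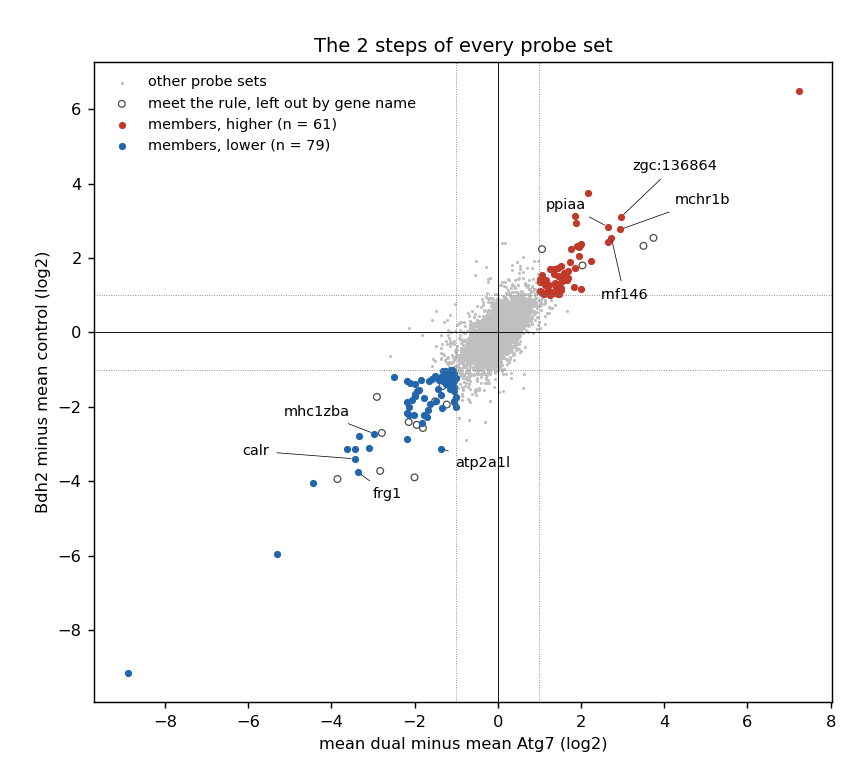
Each point is 1 probe set, with mean dual minus mean Atg7 on the x axis and Bdh2 minus mean control on the y axis, both log2 differences; dotted lines mark 1 and -1. The 61 higher members (red) and 79 lower members (blue) lie in the corners past both lines, the other probe sets are grey, and open circles are the 15 probe sets left out by gene name.

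Among the higher members the median step was 1.48 for dual minus Atg7 and 1.43 for Bdh2 minus control. Among the lower members it was -1.42 and -1.47. Both steps were at least 2 in size in 23 members, at least 3 in 9 and at least 5 in 3. Between the arrays with the morpholino and those without it the values left a gap of 0.36 to 8.32, with a median of 1.11, and in 82 members the gap was 1 or more. Replicates were close to each other. The median SD of members was 0.11 in dual, 0.082 in Atg7 and 0.080 in control arrays (n = 3 each), against 0.081, 0.087 and 0.074 over all probe sets in the same groups. The 2 steps of a member differed by a median of 0.26, by under 0.5 in 116 members and by at least 1 in 6.

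Low levels of members ranged over much of the array's scale. The low arrays of 44 members stood, on average, under the 25th percentile of their array, and those of 39 members over the 50th. In 10 members the low arrays were under the 25th and the high arrays over the 50th percentile. The members just inside the size of 1 were spred1 (-1.004 and -1.23 in dual minus Atg7 and Bdh2 minus control), an unnamed probe set (1.24 and 1.01) and tspan4a (1.01 and 1.12). Just outside were ptgdsb.1 (-0.996 and -1.46), a probe set of cyp51 (-1.11 and -0.99) and neurod6a (-1.03 and -0.99).

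The lower members held the largest steps. The farthest was an unnamed probe set, Dr.24216.1.S1_at, which read 4.49, 4.93 and 5.42 on dual arrays and 4.63 on the Bdh2 array, against 13.87, 13.83 and 13.82 on Atg7 arrays and 13.74, 13.82 and 13.79 on control arrays. Its steps of -8.89 ± 0.17 and -9.15 ± 0.23 (here and below the standard error of the fit) are given with no fold, since the files hold no detection call and its low arrays were not shown to be above background. It stood at percentile 27.7 on average in the 4 arrays with the Bdh2 morpholino, against percentile 99.7 in the 6 without. A further unnamed one, Dr.3374.1.S1_at, read 4.80, 4.47 and 4.57 on dual arrays and 4.59 on the Bdh2 array, against 9.91, 9.97 and 9.91 on Atg7 arrays and 10.51, 10.50 and 10.62 on control arrays. Its high arrays stood at percentile 94.6 on average.

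Of the lower members with a gene symbol, LOC100002043 had the largest step, with 4.53, 4.21 and 4.49 on dual arrays and 4.62 on the Bdh2 array, against 8.86, 8.82 and 8.89 on Atg7 arrays and 8.70, 8.67 and 8.61 on control arrays. Its neighbour on chromosome 15, si:ch1073-340i21.3, read 5.66, 5.83 and 5.75 on dual arrays and 6.22 on the Bdh2 array, against 9.35, 9.33 and 9.42 on Atg7 arrays and 9.21, 9.50 and 9.33 on control arrays. The steps were -4.45 ± 0.080 and -4.04 ± 0.11 for LOC100002043 and -3.62 ± 0.078 and -3.13 ± 0.11 for si:ch1073-340i21.3. In each comparison si:ch1073-340i21.3 was more than 8-fold lower. For LOC100002043 no fold is given, since its low arrays, at percentile 21.8 on average, were not shown to be above background. No gene of the RefSeq table lies between the pair. On the other side of 1 more gene lies wu:fb18f06, a member that was higher, by 1.23 and 1.26.

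The calr probe set reads the transcript of calreticulin, a calcium-binding chaperone of the endoplasmic reticulum. It stood at 4.18, 4.18 and 3.94 on dual arrays and 4.04 on the Bdh2 array, against 7.48, 7.53 and 7.61 on Atg7 arrays and 7.52, 7.48 and 7.31 on control arrays. The steps were -3.44 ± 0.081 and -3.40 ± 0.11, and no value of the 4 low arrays came within 3 log2 units of the other 6. For frg1, whose human counterpart is named for the region linked to facioscapulohumeral dystrophy, the values were 4.12, 4.42 and 4.47 on dual arrays and 3.93 on the Bdh2 array, against 7.75, 7.73 and 7.62 on Atg7 arrays and 7.76, 7.69 and 7.61 on control arrays. Its steps were -3.36 ± 0.089 and -3.76 ± 0.13. The low arrays of calr and frg1 stood at percentiles 16.5 and 18.7 on average, not shown to be above background. The sugar-binding galectin gene lgals2b read 7.18, 7.11 and 6.70 on dual arrays and 6.94 on the Bdh2 array, against 10.44, 10.45 and 10.39 on Atg7 arrays and 10.03, 10.03 and 10.17 on control arrays. Its steps were -3.43 ± 0.11 and -3.13 ± 0.15, and its low arrays stood above the middle of the array, at percentile 60.1 on average.

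A further 3 lower members sat near the bottom of the array in the embryos with the Bdh2 morpholino. si:ch73-237c6.1 read 4.34, 4.11 and 4.29 on dual arrays and 4.24 on the Bdh2 array, against 7.42, 7.24 and 7.39 on Atg7 arrays and 7.36, 7.30 and 7.37 on control arrays. zgc:112271 had 3.16, 3.52 and 3.55 on dual arrays and 3.59 on the Bdh2 array, against 6.80, 6.66 and 6.77 on Atg7 arrays and 6.38, 6.29 and 6.44 on control arrays. The values of mhc1zba, of the class I major histocompatibility genes, which encode peptide-presenting molecules, were 3.51, 3.56 and 3.51 on dual arrays and 3.59 on the Bdh2 array, against 6.55, 6.39 and 6.54 on Atg7 arrays and 6.28, 6.37 and 6.28 on control arrays. The steps were -3.11 ± 0.075 and -3.10 ± 0.11 for si:ch73-237c6.1 and -3.34 ± 0.098 and -2.78 ± 0.14 for zgc:112271. The 4 low arrays of mhc1zba lay between 3.51 and 3.59, and its steps were -2.97 ± 0.063 and -2.72 ± 0.089.

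Genes of nerve and membrane biology were among the next in size. ndrg4, of the N-myc downstream-regulated family, read 5.14, 5.31 and 5.27 on dual arrays and 4.25 on the Bdh2 array, against 7.50, 7.51 and 7.25 on Atg7 arrays and 7.09, 7.16 and 7.09 on control arrays. The ependymin-like gene epdl2 read 7.03, 7.06 and 6.76 on dual arrays and 7.04 on the Bdh2 array, against 9.08, 9.21 and 9.13 on Atg7 arrays and 9.27, 9.22 and 9.17 on control arrays. gpm6ba, which encodes a proteolipid membrane protein of neurons, read 5.01, 4.89 and 4.73 on dual arrays and 4.50 on the Bdh2 array, against 7.07, 6.95 and 6.63 on Atg7 arrays and 6.63, 6.79 and 6.73 on control arrays. The steps of these 3 were -2.18 ± 0.079 and -2.86 ± 0.11 for ndrg4, whose Bdh2 array was the lowest of the 10, -2.19 ± 0.081 and -2.17 ± 0.11 for epdl2, and -2.01 ± 0.11 and -2.21 ± 0.15 for gpm6ba. The low arrays of ndrg4 and gpm6ba stood at percentiles 29.6 and 26.6 on average, not shown to be above background. elovl8b, of the fatty acid elongase family, read 5.08, 4.71 and 4.84 on dual arrays and 5.07 on the Bdh2 array, against 7.04, 7.05 and 6.97 on Atg7 arrays and 7.11, 6.95 and 7.16 on control arrays. The 4 arrays of elovl8b with the Bdh2 morpholino lay under all others, with steps of -2.14 ± 0.092 and -2.003 ± 0.13. These 4 stood at percentile 28.7 on average, not shown to be above background.

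The higher members were led by a further unnamed probe set, Dr.5211.1.A1_at, with 11.06, 10.997 and 11.09 on dual arrays and 9.92 on the Bdh2 array, against 3.94, 3.80 and 3.70 on Atg7 arrays and 3.41, 3.27 and 3.64 on control arrays. Its steps of 7.23 ± 0.093 and 6.48 ± 0.13 go with an average percentile of 96.1 in the arrays with the Bdh2 morpholino, against 10.4 in those without, a level not shown to be above background. The unnamed Dr.26540.1.A1_at read 9.65, 9.70 and 9.63 on dual arrays and 10.95 on the Bdh2 array, against 7.59, 7.47 and 7.44 on Atg7 arrays and 7.17, 7.28 and 7.18 on control arrays. In this one the Bdh2 array was above all dual arrays by more than 1 log2 unit, whereas in Dr.5211.1.A1_at it was below them.

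Of the higher members with a gene symbol, zgc:136864 had the largest steps (2.96 ± 0.10 and 3.10 ± 0.14), with 8.62, 8.63 and 8.40 on dual arrays and 8.71 on the Bdh2 array, against 5.42, 5.50 and 5.84 on Atg7 arrays and 5.66, 5.56 and 5.62 on control arrays. For mchr1b, a receptor of melanin-concentrating hormone, a hypothalamic peptide that pales fish skin and acts on feeding, the values were 6.93, 6.82 and 6.90 on dual arrays and 6.86 on the Bdh2 array, against 3.94, 3.92 and 3.97 on Atg7 arrays and 4.05, 4.15 and 4.06 on control arrays. Those with the Bdh2 morpholino lay between 6.82 and 6.93, and the steps of mchr1b were 2.94 ± 0.059 and 2.77 ± 0.083. Its low arrays stood at percentile 15.9 on average, not shown to be above background. ppiaa, which encodes a cyclophilin A, an abundant prolyl isomerase, read 9.48, 9.41 and 9.49 on dual arrays and 9.60 on the Bdh2 array, against 6.88, 6.84 and 6.74 on Atg7 arrays and 6.70, 6.85 and 6.72 on control arrays. The steps of this ppiaa probe set were 2.64 ± 0.066 and 2.84 ± 0.093, or 6.23-fold and 7.17-fold higher. The other ppiaa probe set read 13.86 to 14.02 on the 10 arrays and differed by -0.0047 and -0.12, as also given below.

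rnf146, a ubiquitin ligase that recognises poly-ADP-ribosylated proteins, was read by a pair of members whose IDs differ only in their suffix and which may share probes. The first read 8.71, 8.83 and 9.06 on dual arrays and 8.51 on the Bdh2 array, against 5.96, 6.28 and 6.17 on Atg7 arrays and 5.69, 6.01 and 6.17 on control arrays. The other, with the suffix x_at, read 8.53, 8.83 and 8.73 on dual arrays and 8.30 on the Bdh2 array, against 6.14, 6.14 and 5.89 on Atg7 arrays and 5.79, 5.90 and 5.97 on control arrays. Both rnf146 members were higher by more than 5-fold in each comparison, with steps of 2.73 ± 0.13 and 2.55 ± 0.18 in the first. si:dkey-286j15.3 read 7.25, 7.21 and 7.14 on dual arrays and 7.40 on the Bdh2 array, against 5.11, 5.31 and 5.17 on Atg7 arrays and 5.19, 4.83 and 5.03 on control arrays. Its steps were 2.01 ± 0.088 and 2.38 ± 0.12. The next gene on chromosome 22, si:dkey-286j15.1, was a member of opposite sign, at -1.77 and -1.76.

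A further 3 higher members include genes of signalling and adhesion. si:ch211-121a2.2 read 5.88, 5.79 and 5.80 on dual arrays and 6.15 on the Bdh2 array, against 3.64, 3.91 and 3.96 on Atg7 arrays and 3.71, 3.73 and 3.98 on control arrays. farp2, an exchange factor for small GTPases, read 5.19, 5.06 and 5.40 on dual arrays and 5.57 on the Bdh2 array, against 3.01, 3.34 and 3.44 on Atg7 arrays and 3.30, 3.29 and 3.21 on control arrays. parvaa, which encodes an alpha-parvin that links integrins to actin, read 5.80, 5.70 and 6.04 on dual arrays and 6.32 on the Bdh2 array, against 3.73, 4.11 and 3.997 on Atg7 arrays and 3.77, 4.11 and 4.15 on control arrays. Their steps were 1.99 ± 0.094 and 2.34 ± 0.13 for si:ch211-121a2.2, 1.95 ± 0.11 and 2.30 ± 0.15 for farp2, and 1.90 ± 0.12 and 2.32 ± 0.17 for parvaa. In these 3 the Bdh2 array was the highest of the 10, and the arrays without the Bdh2 morpholino were in the lowest part of the array, at average percentiles of 13.2, 5.03 and 15.3.

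tnpo2a, a nuclear import receptor, read 7.79, 7.94 and 8.06 on dual arrays and 8.21 on the Bdh2 array, against 6.34, 5.73 and 5.85 on Atg7 arrays and 6.11, 6.23 and 6.17 on control arrays. The tnpo2a steps were 1.95 ± 0.13 and 2.04 ± 0.18. The titin gene ttn.2 read 10.10, 10.09 and 10.07 on dual arrays and 9.67 on the Bdh2 array, against 8.29, 8.46 and 8.47 on Atg7 arrays and 7.91, 8.001 and 8.12 on control arrays. Its steps were 1.68 ± 0.071 and 1.66 ± 0.10, and the Atg7 arrays lay above all control arrays.

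**Figure D2:**
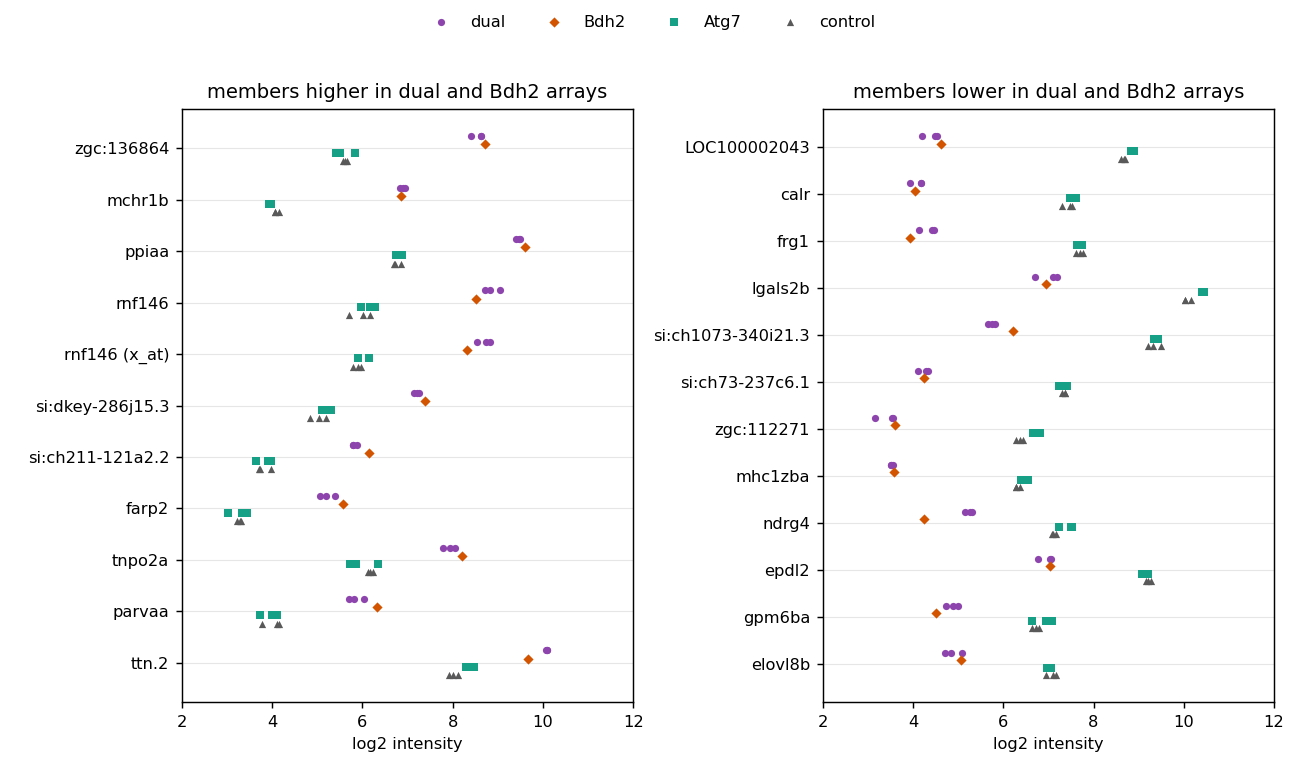
Log2 intensity in each of the 10 arrays for 11 of the 12 higher (left) and the 12 lower (right) members with a gene symbol and the largest steps, 1 point per array, with dual (purple circles), Bdh2 (orange diamonds), Atg7 (green squares) and control arrays (grey triangles) offset down each row. In every row the purple and orange points stand apart from the green and grey ones, as the rule asks, and in the rows shown the points of a group mostly lie within 0.5 of each other.

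The remaining named members were grouped by the known roles of their products after their values were seen, and no group was tested. In the complement and coagulation system both signs occurred. cfd, which encodes the complement protease factor D, was lower (-1.99 and -1.38 in dual minus Atg7 and Bdh2 minus control), as was serping1, the inhibitor of the first complement component (-1.37 and -1.67). cfp, which encodes properdin, a stabiliser of the complement convertase, was higher (1.19 and 1.24), and so was the antithrombin gene serpinc1 (1.19 and 1.102). On chromosome 8 cfp lies next to si:ch73-237c6.1, which was lower by more than 3 log2 units. The protease inhibitor gene spint1b stood at 1.04 and 1.43.

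Muscle genes also took both signs. Besides ttn.2, txlnba was higher (1.25 and 1.71). The low and high arrays of txlnba stood at percentiles 8.87 and 28.6 on average, not shown to be above background. The calcium pump gene atp2a1l, whose product returns calcium to the sarcoplasmic reticulum, was lower by unequal amounts (-1.37 and -3.12). The same held for pfkma, a muscle phosphofructokinase of glycolysis (-1.01 and -2.01). For atp2a1l the arrays read 8.35, 8.41 and 8.43 on dual arrays and 7.08 on the Bdh2 array, against 9.74, 9.65 and 9.89 on Atg7 arrays and 10.23, 10.23 and 10.14 on control arrays. The mean of the skeletal muscle markers was also lowest in the Bdh2 array, as given above, and its part in these values was not tested.

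Among protein folding and turnover genes, the co-chaperone gene dnaja1 was higher (1.44 and 1.30) and dnajb11, a co-chaperone of the endoplasmic reticulum, was lower (-1.36 and -1.21). txnl1, a thioredoxin-like protein bound to the proteasome, was higher (1.29 and 1.09), and the ubiquitin-conjugating enzyme gene ube2d2 lower (-1.62 and -1.93). csnk2a1, a catalytic subunit of casein kinase 2, was lower (-1.78 and -2.21), while its other probe set differed by -0.27 and -0.059. Also lower were cdk5, a kinase of neurons (-1.21 and -1.35), and mknk2a, which phosphorylates the cap-binding translation factor (-1.17 and -1.10).

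In RNA and DNA biology, xrcc5, a Ku subunit of DNA end joining, was higher (1.58 and 1.596). The splicing factor gene sf3b5 (1.48 and 1.02), the ribosome maturation gene nob1 (1.35 and 1.70) and the RNA-binding protein gene hnrnpa0a (1.84 and 1.23) were higher too. The other probe set of nob1 differed by -0.089 and 0.35. The helicase gene ddx52 (-1.31 and -1.29) and the Musashi gene msi2a (-1.09 and -1.01) were lower. Of secreted neural factors, the midkine gene mdkb was lower (-1.71 and -2.27) and ncana, which encodes the proteoglycan neurocan, higher (1.47 and 1.19). nrarpb, a feedback regulator of Notch, stood at 1.54 and 1.38.

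The islet hormone genes sst2, a somatostatin, and gcga, a glucagon, were both lower (-1.20 and -1.08 for sst2, -1.08 and -1.06 for gcga). Lower members with roles in metabolism and transport included selenop2, of the selenoprotein P family (-1.99 and -1.66), the mitochondrial carrier gene slc25a14 (-1.89 and -1.54 in 1 of its 2 members), the sterol demethylase gene cyp51 (-1.48 and -1.20), the histidine breakdown gene uroc1 (-1.26 and -1.30) and phyhd1 (-1.17 and -1.37). On average the low and high arrays stood at percentiles 4.47 and 29.7 for this slc25a14 member, and at 10.7 and 30.7 for cyp51. These levels were not shown to be above background. A further slc25a14 probe set, no member, differed by -0.19 and -0.067. Other cyp51 probe sets differed by -1.11 and -0.99, by -0.27 and -0.28, and by 0.13 and -0.057. fthl28, a ferritin heavy chain-like gene, stood at -1.06 and -1.86. The unnamed Dr.12425.5.S1_a_at, whose ID differs from that of the fthl28 member only in the suffix, differed by -0.26 and -0.086.

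Other probe sets of the same genes were set beside the members. Of the 87 member genes 25 had another probe set, 50 such partners in all when each member of a gene also counts as a partner of the others. In dual minus Atg7 30 of the 50 passed the threshold in limma's test (Benjamini-Hochberg adjusted p under 0.05 over all 15502 probe sets), 29 in the member's direction and 1 against it, and for Bdh2 minus control 25 passed, all in the member's direction. But 12 of the 50 were members themselves, chosen on these contrasts. The other 38 are those whose own values did not meet the rule, so that leaving the 12 out holds their counts and steps down. Of these 38, 18 (47.4%) passed in dual minus Atg7, 17 with the member and 1 against it, where 33.0% of all probe sets passed (15.8% higher and 17.2% lower). For Bdh2 minus control 13 (34.2%) passed, where 28.2% of all probe sets passed, a near share when direction is left aside. All 13 went with the member, where 15.0% of all probe sets were higher and 13.2% lower. These shares were not tested against each other. The median step of the 38, signed by the member, was 0.16 and 0.12, and 2 of them, of cyp51 and nrarpb, reached 1 in dual minus Atg7. For dual minus Atg7, 21 of the 38 had under 10% of the member's step and 7 had over 50% of it. Some of the 21 read low on all 10 arrays, such as those of zgc:112271 (2.61 to 3.04) and slc25a14 (3.69 to 4.10), not shown to be above background. Others of the 21 read high, such as that of ppiaa (13.86 to 14.02). The count was not split by level.

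In 7 genes every partner differed by under 0.25 in both comparisons, namely calr, zgc:112271, mchr1b, ppiaa, hnrnpa0a, clptm1l and spint1b. Some of these partners read low on all 10 arrays, where differences can be compressed. That of zgc:112271 read 2.61 to 3.04, a partner of spint1b 4.38 to 5.03 and another 4.40 to 5.03, levels not shown to be above background. The other calr probe set read 7.19, 7.24 and 7.24 on dual arrays and 6.91 on the Bdh2 array, against 7.27, 7.20 and 6.98 on Atg7 arrays and 7.04, 6.99 and 6.98 on control arrays. Its differences were 0.073 ± 0.074 (limma adjusted p = 0.496) in dual minus Atg7 and -0.092 ± 0.10 (limma adjusted p = 0.56) in Bdh2 minus control, whereas the member differed by more than 3 in each. The other ppiaa probe set read 13.86 to 14.02 on the 10 arrays and differed by -0.0047 ± 0.061 and -0.12 ± 0.086 (limma adjusted p = 0.963 and 0.348). The partner of mchr1b read 4.03 to 4.69 on the 10 arrays, not shown to be above background, and differed by 0.019 ± 0.12 and -0.024 ± 0.16 (limma adjusted p = 0.922 and 0.936). One of the partners of hnrnpa0a read 10.53 to 10.83 and differed by -0.0099 ± 0.088 and -0.13 ± 0.12 (limma adjusted p = 0.946 and 0.479).

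The partner of zgc:112271 differed by -0.24 ± 0.081 for dual minus Atg7 (limma adjusted p = 0.0419, past 0.05 in 6 alternatives, up to 0.144) and by -0.082 ± 0.11 for Bdh2 minus control. The third rnf146 probe set, which has another number in its ID, differed by -0.17 ± 0.10 and -0.36 ± 0.14 (limma adjusted p = 0.238 and 0.0846), against the direction of the 2 members. The 1 partner past the threshold against its member was of clptm1l, at 0.22 ± 0.059 (limma adjusted p = 0.013, and 0.0527 without 1 array).

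Other genes had at least 1 partner that differed in the member's direction, in some by a small part of the member's step. In dual minus Atg7 the partners of ndrg4 and zgc:136864 had 11.5% and 21.2% of that step. Both elovl8b probe sets were members, and the other read 5.41, 5.31 and 5.16 on dual arrays and 5.36 on the Bdh2 array, against 7.46, 7.19 and 7.45 on Atg7 arrays and 7.30, 7.07 and 7.16 on control arrays. The 2 members of ttn.2 have different numbers in their IDs, and the second was higher by 1.35 and 1.07. Beside them, a pair of ttn.2 probe sets that read at most 4.35 differed by 0.12 and 0.16 for dual minus Atg7. trpc4apb had partners at -0.90, -0.65 and -0.31 for dual minus Atg7, and at -0.97, -0.76 and -0.44 for Bdh2 minus control, all past the threshold with limma. tspan4a had a partner at 0.86 ± 0.089 and 0.75 ± 0.13, and nrarpb had one at 1.06 ± 0.13 and 0.92 ± 0.19, beside others at 0.15 and 0.30 in dual minus Atg7. In farp2 a second member was at 1.11 and 1.02, and the third probe set read 9.01 to 9.34 on the 10 arrays and differed by 0.055 and 0.20. zgc:136864 had a partner at 0.63 ± 0.069 and 0.49 ± 0.098 (limma adjusted p = 2.92e-05 and 0.00298). For ndrg4 the partner differed by -0.25 ± 0.063 in dual minus Atg7 and by -1.15 ± 0.090 in Bdh2 minus control (limma adjusted p = 0.00963 and 2.68e-06).

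Among the 38 partners that were no members, 17 share the number in their ID with the member and had a median of 0.27 in dual minus Atg7 when signed by the member, with 10 past the threshold in its direction. The 21 with another number had a median of 0.15, with 7 past it. The difference between these kinds was not tested. The pairs whose IDs differ only by suffix may share probes, and of the 140 members 13 (9.29%) carried a suffix that marks probes shared with other transcripts, beside 5.92% of all probe sets.

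**Figure D3:**
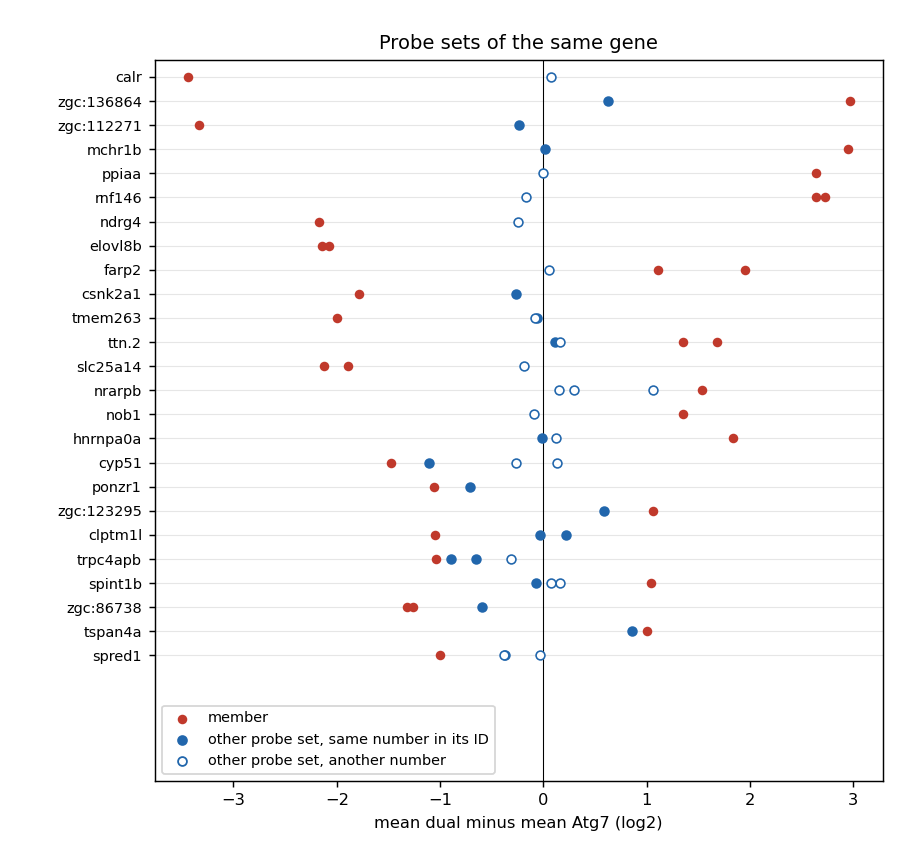
Mean dual minus mean Atg7 (log2, x axis) of each probe set of the 25 member genes that have more than 1, with genes in order of their step: members in red, other probe sets that share the number in their ID filled blue, those with another number open blue. The blue points of calr, mchr1b and ppiaa lie at 0.073, 0.019 and -0.0047, far from their red points, whereas those of trpc4apb and tspan4a lie towards the red ones. The blue mchr1b probe set read at most 4.69, a level not shown to be above background.

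The rule did not use Atg7 minus control, the contrast of the Atg7 morpholino alone, although the values of both groups entered it. In this contrast 32 of the 140 (22.9%) passed limma's threshold, 22 higher and 10 lower, where 9.91% of all probe sets passed (6.26% higher and 3.64% lower). The median size of the difference was 0.15 over members and 0.097 over all probe sets, and no member reached 1, with a range of -0.84 for the unnamed Dr.422.1.A1_at to 0.95 for the unnamed Dr.13609.1.A1_at. Of the 32, 13 went in the direction of their step and 19 against it. Without Atg7 replicate 1, or without control replicate 1, the count was 21, which is not set here against the share of all probe sets in those settings.

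Of the members with a gene symbol, fthl28 rose by 0.60 ± 0.060 (limma adjusted p = 8.31e-05), with means of 7.40 in Atg7 and 6.80 in control arrays, whereas its steps with the Bdh2 morpholino were negative. wu:fb51h06 rose by 0.80 ± 0.093 (limma adjusted p = 0.000259), with 6.87 in Atg7 and 6.07 in control arrays. sst2 rose by 0.37 ± 0.064, and the 2 members of ttn.2 rose by 0.40 ± 0.071 and 0.29 ± 0.059. sf3b5 fell by 0.45 (SE 0.063, limma adjusted p = 0.000829), with 8.77 in Atg7 and 9.22 in control arrays, and atp2a1l fell by 0.44 (SE 0.069). zgc:194246 fell by 0.32 and cyp2x10.2 by 0.33. The call of cyp2x10.2 ended under 8 alternatives (adjusted p up to 0.131), that of zgc:194246 under 5 (up to 0.0953) and that of the second ttn.2 member under 1 (0.0555). The Atg7 difference of ttn.2 had the sign of its steps, and that of sf3b5 the opposite sign.

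Between dual and Bdh2 embryos, which differ in the Atg7 morpholino and possibly in the dose of the Bdh2 morpholino, 27 of the 140 members (19.3%) passed limma's threshold, 18 higher and 9 lower in dual, where 12.1% of all probe sets passed (6.53% higher and 5.53% lower). The median size of the difference was 0.22 over members and 0.14 over all probe sets. This comparison rests on the lone Bdh2 array, whose spread the fit takes from the other 3 groups. Of the 27, 8 differed in the direction of their step and 19 against it, so that the Bdh2 array stood farther out than the dual arrays in these 19. The rule asked for a step of at least 1 from this single array, so that its values chose the members, and the split by direction is a description. Of the members with a gene symbol, the smallest p values belonged to fthl28, at 6.34 on dual arrays and 4.94 on the Bdh2 array (1.40 ± 0.084, limma adjusted p = 2.39e-06), and atp2a1l, at 8.39 and 7.08 (1.31 ± 0.098, limma adjusted p = 9.26e-06). Next among them came wu:fa03e10 (0.99 ± 0.099), pfkma (0.83 ± 0.092) and ndrg4 (0.99 ± 0.11). Lower in dual were spint1b (-0.50 ± 0.095), cfd (-0.49 ± 0.10), si:ch1073-340i21.3 (-0.47 ± 0.11) and zgc:64002 (-0.37 ± 0.091). In 1 alternative each, cfd (adjusted p = 0.05002) and zgc:64002 (0.0922) lost the call. For 5 members the difference was at least 1 in size, namely fthl28, atp2a1l and the unnamed Dr.26540.1.A1_at (-1.29), Dr.25559.1.S1_at (-1.14) and Dr.5211.1.A1_at (1.13).

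The 2 steps of a member differed by at least 1 in 6 members, given as a description since both steps chose them. In atp2a1l and pfkma, both lower, the step was larger in size in Bdh2 minus control, as given above. The same held for 3 higher unnamed members, Dr.26540.1.A1_at (2.16 and 3.74 in dual minus Atg7 and Bdh2 minus control), Dr.25559.1.S1_at (1.85 and 3.12) and Dr.6885.1.A1_at (1.88 and 2.95). In the lower unnamed member Dr.13609.1.A1_at (-2.49 and -1.19) the step was larger in dual minus Atg7.

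**Figure D4:**
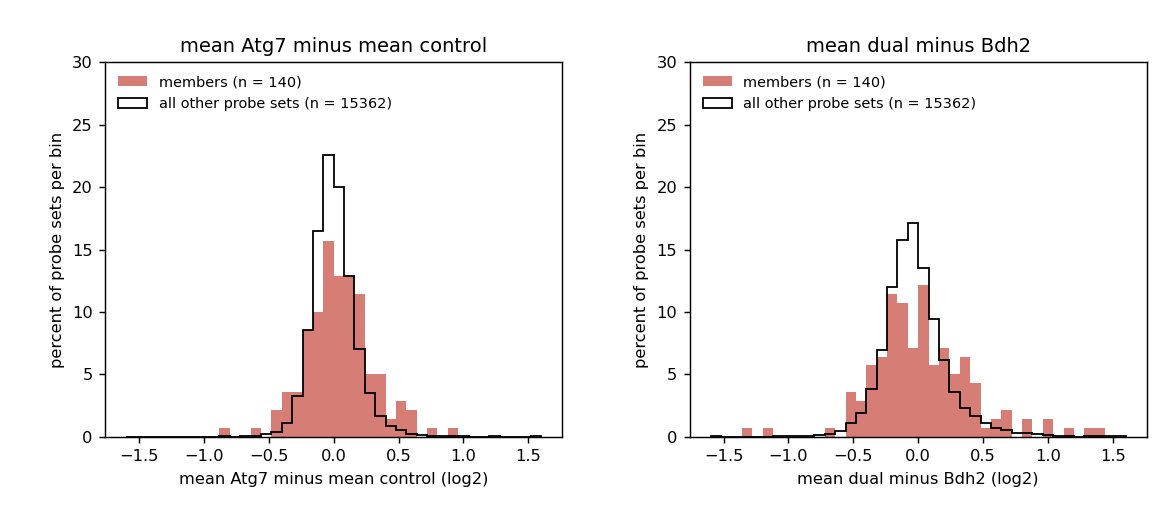
Share of probe sets, in percent per bin, by mean Atg7 minus mean control (left) and mean dual minus Bdh2 (right), both log2 differences on the x axis, for the 140 members (red) and the 15362 other probe sets (black line; values past either end are counted in the last bin). Members spread wider around 0 than the others in both, with median sizes of 0.15 and 0.22, against 0.097 and 0.14 over all probe sets.

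Probe sets of 9 gene lists, 7 of which hold a member, were read in the same fit, where 33.0% of all probe sets passed for dual minus Atg7 and 28.2% for Bdh2 minus control. Of 17 probe sets for class I histocompatibility and antigen processing genes, 1 was higher and 2 were lower past the threshold for dual minus Atg7, and 2 were higher and 2 lower for Bdh2 minus control, with medians of 0.017 and 0.044, beside 0.012 and 0.045 over all probe sets. Beside mhc1zba these were psme2 (0.21 and 0.37), mhc1zca (0.39 in Bdh2 minus control), b2m, the light chain of class I molecules (-0.43 in dual minus Atg7) and psmb10 (-0.40 in Bdh2 minus control). Of 10 galectin probe sets 2 were higher and 2 lower for dual minus Atg7, and 2 were higher and 3 lower for Bdh2 minus control. lgals2a, the closest by name to lgals2b, fell by 0.60 and 0.78, while lgals9l3 rose by 0.70 and 0.70. Of 12 cyclophilin probe sets 3 were higher and 1 lower for dual minus Atg7, and 2 were higher and 1 lower for Bdh2 minus control. Beside ppiaa, ppig rose by 0.54 and 0.47, and ppiab fell by 0.38 and 0.41.

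Among 12 probe sets of lectin chaperones and disulfide isomerases 2 were higher and 3 lower for dual minus Atg7, and 3 were lower for Bdh2 minus control. calr3a fell by 0.24 and 0.39 and hsp90b1 by 0.19 and 0.38, while pdia6 rose by 0.22 in dual minus Atg7. In the parvin and integrin-linked kinase list 4 of 5 probe sets were higher for dual minus Atg7 and 3 of 5 for Bdh2 minus control. They were parvaa, both of lims1, an adaptor of that complex (0.91 and 0.75 for dual minus Atg7, 0.81 and 0.99 for Bdh2 minus control), and, in dual minus Atg7, lims2 (0.54). The IDs of the lims1 pair differ only in the suffix, so that they may share probes. The remaining probe set, of the kinase gene ilk, differed by -0.11 and -0.096. Of 5 probe sets of ADP-ribosylation genes the 2 of rnf146 were higher and parp3 fell (-0.71) for dual minus Atg7, and parp2 rose for Bdh2 minus control (0.53). Of 6 for the melanin-concentrating hormone system 1, mchr1b, was higher in both. The list of immune GTPase and NLR genes held only NLR probe sets on this array, and 1 of 3 fell in dual minus Atg7 (nlrp16, -0.35). In the acyl-CoA synthetase list 1 of 3 fell in both (acsl6, -0.34 and -0.79). Those 2 lists hold no member. The other 7 hold members chosen on these same contrasts and are no independent evidence of direction, and no list's share was tested against that of all probe sets.

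Member genes were spread over the genome. Of the 87, 86 had a place on a numbered chromosome, and 24 of the 25 chromosomes held at least 1, with 7 each on chromosomes 1 and 8, 6 on chromosome 3 and none on chromosome 4. Chromosomes 1 and 8 held 8.14% of member genes each, beside 4.70% and 4.39% of the genes on the array. Pairs of members with at most 5 genes between them numbered 4, on chromosomes 8, 15 and 22. In 1 of these pairs both genes were lower, and in the other 3 the signs differed.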

How the data were processed

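RNA of 10 whole-embryo samples was read on a 1-colour Affymetrix zebrafish array. The deposited values are log2 intensities per probe set, made by the authors. Per the submitters' processing notes the tool was Affymetrix Expression Console, and how it summarised and normalized the probes is not given in the sources used here. The log2 unit was read from the range of the values. Array medians are nearly equal, so a change of all transcripts could not be seen, and differences near background can be compressed.

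Of 15617 probe sets, 115 AFFX controls were left out. The platform annotation gave 1 symbol for 10795 probe sets, and 10711 were found in the RefSeq table of the GRCz12tu assembly, used for current symbols and gene order only. All 10 arrays were fitted together (4 group means, 6 residual degrees of freedom) in R 4.3.3 with limma 3.58.1 (lmFit, eBayes), two-sided, with Benjamini-Hochberg adjustment over 15502 probe sets and a threshold of 0.05. In simulated data with 100 probe sets changed by 0.5 in Atg7 minus control the fit recovered 80%, and the rule recovered 60 of 60 planted steps of 2 in size. Steps near the rule's size of 1 were not simulated. Values in every array are given for the 12 higher and 12 lower named members of largest step, the smaller of the 2 counting, and for 2 unnamed ones of each sign; the values of 1 of the higher ones are not reported here. Contrasts name up to 5 members with a gene symbol in each direction, by smallest p, and gene lists up to 3. Partners in full are those of these members. Other partners are shown because they moved least or most, or to stand beside a named member. The members and lists were chosen with earlier results of these data known. Alternatives were quantile normalization, a filter on dim probe sets, eBayes with trend and robust, a replicate block, leaving out each replicate or shared-probe suffixes, and other sizes in the rule. The counts of partners without those that are members were added after seeing the data.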

Additional observations from a re-analysis of the deposited data

How the results depend on the processing

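The number of members was 140. It was 50 with both steps at least 1.5 and 243 with both at least 0.8, since the rule's size sets it; without 1 replicate it ranged from 137 to 147, with 135 to 139 members in common, and quantile normalization gave 139. In Atg7 minus control the 32 members past the threshold became 21 to 34 without 1 replicate, and 23 with the replicate number as a block. In dual minus Bdh2 the 27 became 26 to 34 without 1 replicate and 25 with the block. The counts without 1 replicate are given without the share of all probe sets in the same setting and are not read against it. Partners past the threshold in dual minus Atg7 numbered 19 of the 29 left when dim probe sets were removed, against 30 of 50, a larger share of fewer partners. With the block 28 of 50 passed, as did 24 of 50 in Bdh2 minus control, against 25. With partners that are members themselves left out, a choice made after seeing the data, 18 of 38 passed in dual minus Atg7 and 13 of 38 in Bdh2 minus control. Partners defined by the number in the ID in place of the gene gave 39 of 76 in Bdh2 minus control, 10 of them against the member, but that number joins probe sets of different genes. Over all probe sets the block lowered the calls to 1006 in Atg7 minus control, against 1536 and to 1144 in dual minus Bdh2, against 1870. Same-numbered samples did not deviate together (r from -0.37 to 0.20, over 0.1 in 2 of 9 pairs). With so few arrays per group, these r values cannot show whether the numbers pair the samples. Of 49 single values tested, 39 kept direction and call in every setting, 10 lost the call in at least 1, and none changed sign. The Bdh2 group has 1 array, which limits every value that uses it. Precision is limited by the 10 arrays.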

Other observations

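Apart from the partners of the same gene, 18 members share the number in their ID with 49 probe sets of another name or of none. Of these, 9 passed limma's threshold in both steps against the direction of the member, all chosen after their values were seen. Others passed it in both steps in the member's direction, and neither share was compared with that of all probe sets. Among those with the member were fthl30 (-0.53 and -0.79, beside fthl28) and ptgdsb.1 (-0.996 and -1.46, beside the member Dr.1192.1.S1_a_at). So were the unnamed members Dr.13609.1.A1_at and Dr.13609.2.S1_at, which share a number and were both chosen by the rule. The same held for the unnamed members Dr.422.1.A1_at and Dr.422.2.S1_at. The opposing ones are described next. The lysosomal protease gene ctsba stood at 1.06 ± 0.062 for dual minus Atg7 and 2.24 ± 0.087 for Bdh2 minus control, beside -5.31 and -5.95 for the member Dr.3374.1.S1_at. gpm6ba stood at -2.01 and -2.21, whereas the unnamed Dr.5434.1.S4_at, itself a member, was higher by 1.31 ± 0.076 and 1.06 ± 0.11, and Dr.5434.1.S2_at by 0.89 ± 0.082 and 0.35 ± 0.12. The member Dr.4615.1.S1_a_at stood at -1.39 and -1.24, and Dr.4615.1.S1_x_at, whose ID differs only in the suffix, rose by 0.69 ± 0.060 and 0.71 ± 0.085. Probe sets of icn and icn2, genes of small calcium-binding proteins, were lower by 0.29 to 0.50 beside the higher member Dr.25140.7.A1_at (1.17 and 1.40), but other probe sets with that number read unrelated genes such as cd81a and pcp4a. The epcam probe set Dr.25140.7.A1_a_at, whose ID differs from that of this member only in the suffix, differed by -0.39 and -0.044.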
